A study of Mus musculus with 12 samples.

Results

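The sarcomeric myosin heavy chains are the motor proteins of striated muscle, and 8 of their genes were followed here across 12 RNA-seq libraries of mouse hindlimb muscle. The genes are the adult Myh4, Myh1, Myh2 and Myh7, the developmental Myh8 and Myh3, and the specialised Myh13 and Myh7b. Each was found as the row of the deposited count table whose Ensembl identifier carries that symbol in the GRCm38 annotation, which gave 8 of the 55573 genes in the table.

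Each heavy chain has a head that binds actin and splits ATP and a tail that packs into the thick filament. Adult fibers are typed by the heavy chain they make: Myh7 marks slow type I fibers, Myh2 type IIA, Myh1 type IIX and Myh4 type IIB, the fastest, and many fibers make more than a single kind. Myh3 is the embryonic and Myh8 the perinatal chain, both made in developing and regenerating fibers, Myh13 is best known from extraocular muscle, and Myh7b is a slow-type chain that hosts the microRNA gene Mir499.

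The study set isolated muscle fibers, taken singly or in pools of 5 or 20, beside the intact muscle, with 3 libraries in each of the 4 groups. Every library came from C57BL/6 mice and from the extensor digitorum longus (EDL), which in mice is made mostly of fast fibers, and no allele or treatment separates the groups. The SMART-Seq HT kit, which copies full-length cDNA from small inputs, was used throughout. Fibers went directly into lysis buffer while the intact muscle was extracted with Trizol, so the release of RNA cannot be told apart from the difference between fibers and muscle. The labels do not say which fiber types were picked or whether libraries of a group came from separate animals, and p-values therefore measure only the spread between these libraries.

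The libraries held 4702823 to 27787120 counted reads. All 5 skeletal fiber markers (Acta1, Ckm, Ttn, Tnnt3 and Mylpf) were present in every group, with a summed level of 147726 to 255486 CPM (counts scaled to a common library total) in single fibers, 54129 to 273887 in pools of 5, 12449 to 90924 in pools of 20 and 58271 to 76374 in whole muscle. Olfactory, vomeronasal and taste receptor genes, which muscle is not known to express, served as background: over 50% of the 1506 genes had a read in 5 libraries, pools of 5 numbers 1 and 2 and all 3 pools of 20. The 99th percentile of their density was 0.0277 to 3.80 RPKM (reads per kilobase of exon, scaled to library totals), highest in pool of 20 number 2, and a gene at or under it is called within the background here. Mitochondrial ribosomal RNA took 38.3% and 34.2% of the reads in pools of 5 numbers 1 and 2, and Gm10800, a predicted gene, took 20.9% in pool of 20 number 2. Fits without the 5 libraries over 50%, called high-background here, keep only single fibers and pool of 5 number 3 of the fiber libraries. Such fits are thus not the full fiber comparison with the background removed.

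Of the 8 genes, 6 lie head to tail on the plus strand of chromosome 11 within 293.3 kb, in the order Myh3, Myh2, Myh1, Myh4, Myh8 and Myh13. On GRCm38, Myh4 (ENSMUSG00000057003) spans chr11:67238029-67260446, Myh1 (ENSMUSG00000056328) spans chr11:67200052-67224575 and Myh2 (ENSMUSG00000033196) spans chr11:67171027-67197517. Myh8 (ENSMUSG00000055775) spans chr11:67277124-67308634, Myh3 (ENSMUSG00000020908) spans chr11:67078300-67102291 and Myh13 (ENSMUSG00000060180) spans chr11:67321658-67371586. Myh7 (ENSMUSG00000053093) lies on the minus strand at chr14:54970684-54994626 and Myh7b (ENSMUSG00000074652) on the plus strand at chr2:155611212-155634307.

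The fast genes are close copies, which bears on how reads can be given to one or another. Over aligned coding bases Myh1 was 90.9% identical to Myh2 and 90.1% to Myh4, Myh4 was 88.2% identical to Myh2 and 87.9% to Myh8, and Myh7 was 77.4% identical to Myh4 but 91.7% to the cardiac gene Myh6. Of all 50-base windows in their annotated transcripts, 30.5% of Myh1, 24.6% of Myh2, 18.9% of Myh4 and 12.1% of Myh8 were also found in another gene, against 20.0% of Myh7, 8.26% of Myh13, 4.76% of Myh3 and 0% of Myh7b. The 60 coding bases below, in the exons for the head, are shown because the 4 fast genes are identical in them. A read lying wholly within these bases cannot be placed. Capitals mark the 13 bases in which Myh7 differs from Myh4. The coordinates are chr11:67245718-67245777 for Myh4, chr11:67206531-67206590 for Myh1, chr11:67179553-67179612 for Myh2 and chr11:67286430-67286489 for Myh8, on the plus strand, and chr14:54988811-54988870 for Myh7, on the minus strand.
Myh4: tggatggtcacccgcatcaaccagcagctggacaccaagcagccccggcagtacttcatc
Myh1: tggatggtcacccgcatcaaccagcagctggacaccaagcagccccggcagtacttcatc
Myh2: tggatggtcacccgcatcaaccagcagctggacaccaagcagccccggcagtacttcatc
Myh8: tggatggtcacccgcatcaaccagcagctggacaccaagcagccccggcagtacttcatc
Myh7: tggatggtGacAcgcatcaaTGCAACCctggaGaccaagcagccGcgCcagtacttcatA

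A second stretch of 60 coding bases, farther along the head, is where the same genes are least alike, with 30 of 60 columns identical in the 4 fast genes, and reads from here tell them apart. In the first line capitals mark the columns that vary among the fast genes, and in the other lines they mark bases that differ from Myh4, 18 in Myh1, 14 in Myh2, 23 in Myh8 and 32 in Myh7. The coordinates are chr11:67248694-67248753 for Myh4, chr11:67209101-67209160 for Myh1, chr11:67181283-67181342 for Myh2 and chr11:67289775-67289834 for Myh8, on the plus strand, and chr14:54987223-54987282 for Myh7, on the minus strand.
Myh4: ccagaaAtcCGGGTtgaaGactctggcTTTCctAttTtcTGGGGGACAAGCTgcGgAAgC
Myh1: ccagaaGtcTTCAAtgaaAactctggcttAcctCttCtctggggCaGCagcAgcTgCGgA
Myh2: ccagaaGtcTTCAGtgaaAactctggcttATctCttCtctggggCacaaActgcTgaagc
Myh8: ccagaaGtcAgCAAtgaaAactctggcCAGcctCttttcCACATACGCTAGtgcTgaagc
Myh7: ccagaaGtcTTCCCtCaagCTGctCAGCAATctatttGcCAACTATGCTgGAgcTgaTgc

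Antisense genes lie across some of these loci, and the strand setting of the counting is not given in the sources used here, so reads of a gene and of its antisense partner cannot be told apart where exons overlap. Myhas, an antisense gene at chr11:67211256-67237573 on the minus strand, starts 238 bases before the RefSeq start of Myh4 and shares 515 exon bases with Myh1. 9430073C21Rik lies across the end of Myh2 and Mhrt, Gm29015 and Gm31251 across Myh7. The 120 bases before the RefSeq start are shown for the 3 adult fast genes, because Myh4 and Myhas start on either side of the first and because Myh2 differed from Myh4 across the libraries. They are from RefSeq on GRCm38.p6, plus strand, at chr11:67237692-67237811 for Myh4, chr11:67199982-67200101 for Myh1 and chr11:67170907-67171026 for Myh2. Capitals mark TATAAA and, in Myh4, the CArG box.
Myh4 promoter: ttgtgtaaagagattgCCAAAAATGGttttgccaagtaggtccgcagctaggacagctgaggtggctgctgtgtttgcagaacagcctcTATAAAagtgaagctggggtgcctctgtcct
Myh1 promoter: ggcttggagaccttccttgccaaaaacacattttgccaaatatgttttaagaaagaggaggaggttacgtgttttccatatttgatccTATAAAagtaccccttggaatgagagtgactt
Myh2 promoter: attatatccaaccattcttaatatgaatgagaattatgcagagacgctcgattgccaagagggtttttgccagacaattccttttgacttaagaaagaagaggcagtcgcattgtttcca

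The motifs searched, on both strands, were TATAAA, the E-box CANNTG, and the MEF2 consensus and the CArG box by name. Within 250 bases before the start, 12.37% of 32851 RefSeq promoters hold TATAAA, 66.22% CANNTG, 2.919% the MEF2 consensus, which can overlap TATAAA, and 1.467% the CArG box. In the stretches shown, TATAAA begins at base -31 of Myh4 and at base -32 of Myh1, and the CArG box begins at base -104 of Myh4, counted back from the start. Neither these nor the MEF2 consensus are among the letters of the 250 bases before the start of Myh2, which says nothing beyond that window. The MEF2 consensus begins at base -182 of Myh4 and at base -211 of Myh1, outside the stretches shown.

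Myh4 was the leading heavy chain in every library. Per kilobase of exon and after TMM scaling (edgeR's trimmed mean of M values), its level was 3873 ± 915 CPM in single fibers, 1887 ± 889 in pools of 5, 1470.5 ± 929 in pools of 20 and 1713 ± 399 in whole muscle (SD, n = 3 each). Myh1 was second by mean in each group, at 56.2, 95.1, 37.3 and 124 CPM per kilobase in single fibers, pools of 5, pools of 20 and whole muscle. The ranges of Myh4 and Myh1 did not overlap in any group.

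The order below Myh1 was not the same in each group. In whole muscle it ran Myh2 (47.7), Myh8 (13.2) and Myh7 (8.79 CPM per kilobase), with Myh1 and Myh2 apart from their next neighbour but the ranges of Myh8 and Myh7 overlapping. In single fibers Myh8 (26.1) and Myh2 (21.6) came next by mean, but Myh1 exceeded Myh8 in 1 of the 3 libraries, while Myh8 exceeded Myh2 in all 3. In pools of 5 the ranges of Myh2 (26.0) and Myh8 overlapped, with Myh2 higher in all 3 libraries, and in pools of 20 those of Myh1, Myh8 (4.77) and Myh2 (4.41) did. The order depends on the lengths used, which sum all annotated exons. They are 11772 bases for Myh8, 7137 for Myh2 and 8616 for Myh7, against coding transcripts of 6149, 6018 and 6135 bases. In pool of 5 number 1 Myh8 had 954 reads and Myh2 811, so by coding transcript Myh8 would lead there. Myh13, Myh3 and Myh7b averaged under 1 CPM per kilobase in every group, and so did Myh7 in the 3 fiber groups.

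**Figure D1:**
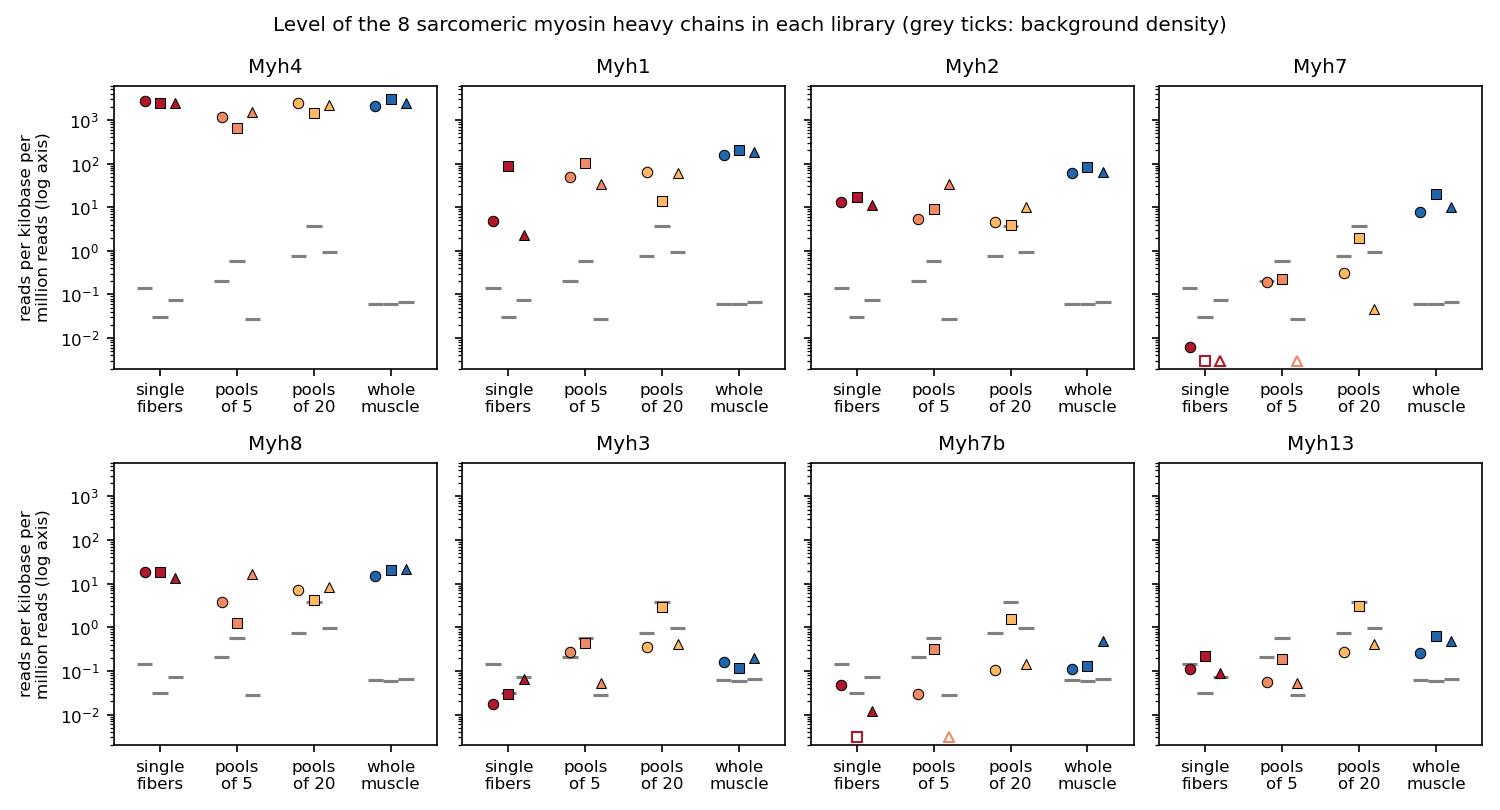
Level of the 8 heavy chain genes in each library, in RPKM on a log axis, by group; circles, squares and triangles are libraries 1, 2 and 3, open symbols at the bottom are libraries with 0 reads, and grey ticks are each library's background density. Myh4 lies far above the background in all 12 libraries, while Myh7 lies above it only in the 3 whole muscle libraries.

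Myh4, the type IIB chain, had 2709, 2497 and 2500.5 RPKM in single fibers 1, 2 and 3, 1188, 645 and 1546 RPKM in pools of 5, 2415, 1441 and 2204 RPKM in pools of 20, and 2076, 2966 and 2472 RPKM in whole muscle. On this scale single fibers lay inside the range of whole muscle, and all 3 pools of 5 and pool of 20 number 2 lay under it. In single fibers against whole muscle Myh4 rose by 1.12 ± 0.33 on the log2 scale (SE; adjusted p = 0.0350, edgeR), with 25821, 27094 and 16993 TMM-scaled CPM in single fibers, against 7820, 12611 and 10490 in whole muscle. That call rests on the scaling: with plain library totals the log2 fold change was 0.037 (adjusted p = 0.901), and with upper-quartile factors it was 1.00 (adjusted p = 0.0716). It was also lost on leaving out single fiber 1 (adjusted p = 0.0554) or whole muscle 1, 2 or 3 (adjusted p = 0.173, 0.125 and 0.149), without the low-count filter (0.98, adjusted p = 0.0621) and with the spread taken from all 12 libraries (1.18, adjusted p = 0.547).

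The choice of scaling also moved the median of all genes. The median gene of single fibers against whole muscle lay at -0.12 (log2) with TMM and at -1.20 with plain totals. For all 9 fiber libraries against whole muscle that median lay at 0.40 with TMM, 0.56 with RLE factors, 0.69 with upper-quartile factors and -0.30 with plain totals. Each log2 fold change can be read against these medians.

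Summed over Myh4, Myh1, Myh2 and Myh7, the adult chains took 16424, 15706 and 15136 CPM of plain library totals in single fibers, 7490, 4593 and 9762 in pools of 5, 14982, 8805 and 13720 in pools of 20, and 13985, 19889 and 16613 in whole muscle. Of the 12 libraries, the lowest sums were those of pools of 5 numbers 2 and 1. All 3 pools of 5 and pools of 20 numbers 2 and 3 lay below whole muscle. Over the 9 fiber libraries the mean log2 difference from whole muscle was -0.60 (exact two-sided permutation test, p = 0.0909, 0.175 after Benjamini-Hochberg adjustment over 7 comparisons), and with TMM-scaled totals it was 0.15. Mitochondrial ribosomal RNA was high in those same 2 pools of 5, but was 2.39% of reads in pool of 5 number 3. Without mitochondrial genes and Gm10800 the adult chains were 1.47%, 1.04% and 1.12% of reads in pools of 5 numbers 1, 2 and 3, against 1.55%, 2.14% and 1.79% in whole muscle.

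A share among the adult chains needs no library scaling. By reads per kilobase, Myh4 made up 99.3%, 96.0% and 99.5% of the 4 adult chains in single fibers, 95.7%, 85.3% and 95.8% in pools of 5, 97.2%, 98.6% and 96.9% in pools of 20, and 90.2%, 90.7% and 90.4% in whole muscle. Of the 9 fiber libraries 8 lay above all 3 whole muscle libraries, and pool of 5 number 2 lay below them. The mean share was 96.0% ± 4.28 in fiber libraries (SD, n = 9) and 90.4% ± 0.24 in whole muscle (SD, n = 3), a difference of 5.57 percentage points with an exact two-sided permutation p of 0.0545, or 0.175 after adjustment over 28 share tests. With 9 against 3 libraries the test cannot give less than 0.00909, and with 3 against 3 it cannot give less than 0.1. Adjusted over the 28 share tests, or over the 7 comparisons of the sum, no p can then fall under 0.05. This holds even where the groups lie fully apart, so the adjusted values cannot decide. Pools and whole muscle are bulk measures over several fibers, in which fewer fibers of a type and less of a transcript in each fiber cannot be told apart, here or for the other chains.

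**Figure D2:**
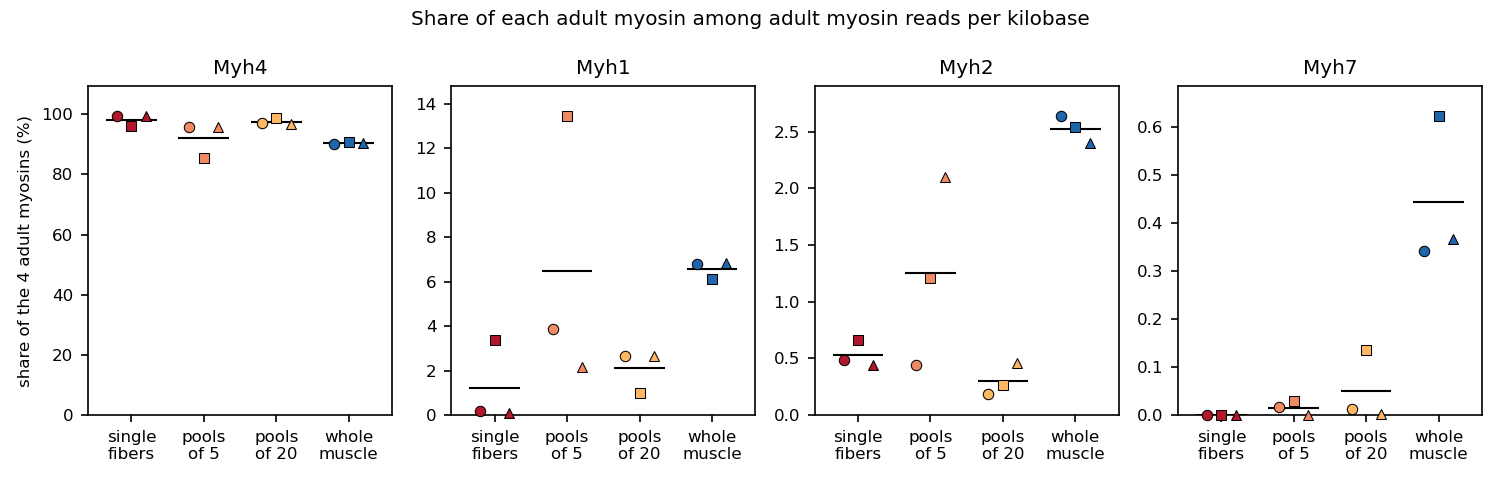
Share of Myh4, Myh1, Myh2 and Myh7 among the 4 adult chains, in percent of reads per kilobase of exon, by group; each panel has its own linear axis from 0, circles, squares and triangles are libraries 1, 2 and 3, and lines are group means. The Myh2 and Myh7 shares of all 9 fiber libraries lie below those of the 3 whole muscle libraries.

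Myh1, the type IIX chain, varied most among single fibers. It had 4.86, 87.8 and 2.25 RPKM in single fibers 1, 2 and 3, 48.0, 102 and 34.5 in pools of 5, 65.5, 14.2 and 60.8 in pools of 20, and 156, 201 and 186 in whole muscle. Single fiber 2 stood far above the other single fibers, and on this scale every fiber library lay below whole muscle. As a share of the adult chains Myh1 was 0.178%, 3.37% and 0.0893% in single fibers, 3.87%, 13.4% and 2.14% in pools of 5, 2.64%, 0.974% and 2.67% in pools of 20, and 6.79%, 6.14% and 6.81% in whole muscle. In pool of 5 number 2 the share of 13.4% (95% Clopper-Pearson interval 13.1 to 13.8, counting error only, as for all such intervals here) was above whole muscle, and the other 8 fiber libraries were below it.

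Myh1 was not called in any of the 7 comparisons with all libraries in (edgeR, adjusted p of 0.166 or more). Its log2 fold change was -1.08 ± 0.83 in the 9 fiber libraries against whole muscle (adjusted p = 0.406, edgeR), with a mean of 399 ± 362 TMM-scaled CPM (SD, n = 9) against 786 ± 146 (SD, n = 3). That result turns on single fiber 2: without it the log2 fold change was -2.30 (adjusted p = 0.0185). In single fibers against whole muscle it was -4.62 (adjusted p = 8.05e-05) without single fiber 2 and -1.27 (adjusted p = 0.449) with it, and without the low-count filter it was -1.40 (adjusted p = 0.00145). In pools of 20 against whole muscle it was -1.47 (adjusted p = 0.166), and -1.18 (adjusted p = 0.00131) without pool of 20 number 2. With plain library totals Myh1 was called lower in pools of 5 (-1.55, adjusted p = 0.0435) and pools of 20 (-1.93, adjusted p = 0.0159).

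Myh2, the type IIA chain, was lower in fiber libraries than in whole muscle. It had 13.2, 17.3 and 11.1 RPKM in single fibers, 5.44, 9.17 and 33.9 in pools of 5, 4.64, 3.81 and 10.4 in pools of 20, and 60.8, 83.1 and 65.7 in whole muscle. On this scale fibers and whole muscle did not overlap, and pool of 5 number 3 was the highest fiber library, but on the TMM scale of the test that library lay within whole muscle. In pool of 20 number 2 the level of Myh2 barely passed that library's background density of 3.80 RPKM. Its share of the adult chains was 0.186% to 2.10% in the 9 fiber libraries, with a median library at 0.456%, and 2.40% to 2.64% in whole muscle, a mean difference of -1.83 percentage points (exact two-sided permutation test, p = 0.00909, adjusted p = 0.127). The ranges did not overlap, and that unadjusted p is the lowest the test can give.

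Of the 8 genes, Myh2 and Myh7 passed the test in the 9 fiber libraries against whole muscle, both lower, where 15.2% of the 22110 genes tested were called, 7.46% higher and 7.78% lower. The log2 fold change of Myh2 was -1.81 ± 0.55 (SE; adjusted p = 0.0339, edgeR), with 124 ± 120 TMM-scaled CPM in fiber libraries (SD, n = 9) against 340.5 ± 74.3 in whole muscle (SD, n = 3). The call of Myh2 did not hold without single fiber 3, pool of 5 number 1 or pool of 20 number 1. Nor did it hold on leaving out whole muscle 1, 2 or 3 (adjusted p = 0.0538 to 0.153 over these settings). In a model with 2 groups it was lost as well (-1.46, adjusted p = 0.163). Without the 5 high-background libraries the log2 fold change was -0.66. That fit holds no pool of 20 and weighs pool of 5 number 3 alone as much as the mean of the single fibers. In each of those settings Myh2 was still lower in fiber libraries by sign.

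By group, Myh2 fell to a log2 fold change of -1.21 ± 0.33 in single fibers (adjusted p = 0.0258, edgeR) and -3.15 ± 0.69 in pools of 20 (adjusted p = 0.00169), and in pools of 5 it was -0.97 ± 0.64 (adjusted p = 0.373). Among pools of 5, number 3 stands apart: without it the log2 fold change was -2.02 (adjusted p = 2.09e-04), and with number 3 alone, the pool of 5 that is not high in background, it was 0.035 (adjusted p = 0.903, the lone library being assumed to vary like whole muscle). The call in single fibers did not hold without whole muscle 1, 2 or 3 (adjusted p = 0.0665 to 0.115) nor with the spread taken from all 12 libraries (adjusted p = 0.313). With plain library totals Myh2 was also called lower in pools of 5 (-2.11, adjusted p = 0.0441).

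Myh7, the slow chain, was measured in whole muscle and was within the background in every fiber library. It had 1, 0 and 0 reads in single fibers 1, 2 and 3, 35, 16 and 0 in pools of 5, 23, 80 and 6 in pools of 20, and 547, 3477 and 1800 in whole muscle. None of the 9 fiber libraries passed its background density for Myh7, and whole muscle passed it in all 3, with 7.85, 20.4 and 10.0 RPKM against a background of 0.0602 to 0.0656. In single fibers 2 and 3 a count of 0 allows up to 3 reads, or 0.108 and 0.236 CPM of plain library totals. Pooled over the group, the 1 read of single fibers against the 5824 reads of whole muscle is a level 3188-fold lower, with a 95% counting interval of 572 to 125940.

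The log2 fold change of Myh7 was -7.04 ± 0.79 in the 9 fiber libraries (adjusted p = 1.67e-05, edgeR), -11.20 ± 0.82 in single fibers (adjusted p = 3.25e-04), -5.37 ± 1.19 in pools of 5 (adjusted p = 0.0361) and -4.19 ± 0.83 in pools of 20 (adjusted p = 7.57e-04). The values for pools rest on reads within the background density. In pools of 5 the call was lost on leaving out pool of 5 number 1 or 2 or whole muscle 1, 2 or 3 (adjusted p = 0.0755 to 0.149). Its share of the adult chains was 0% to 0.135% in fiber libraries and 0.341%, 0.623% and 0.366% in whole muscle, without overlap (exact two-sided permutation test, p = 0.00909, adjusted p = 0.127). Here too the unadjusted p is the lowest the test can give.

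Myh7 sequence is shared mainly with Myh6, the cardiac alpha chain, which had 0, 14 and 40 reads in whole muscle, at most 1 read in each single fiber, 23, 21 and 0 in pools of 5 and 7, 68 and 40 in pools of 20. Mir208b, the microRNA gene inside Myh7, had 0 to 2 reads in all libraries, and Mhrt, an antisense gene at this locus, had 0 reads in whole muscle and up to 7 in fiber libraries.

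**Figure D3:**
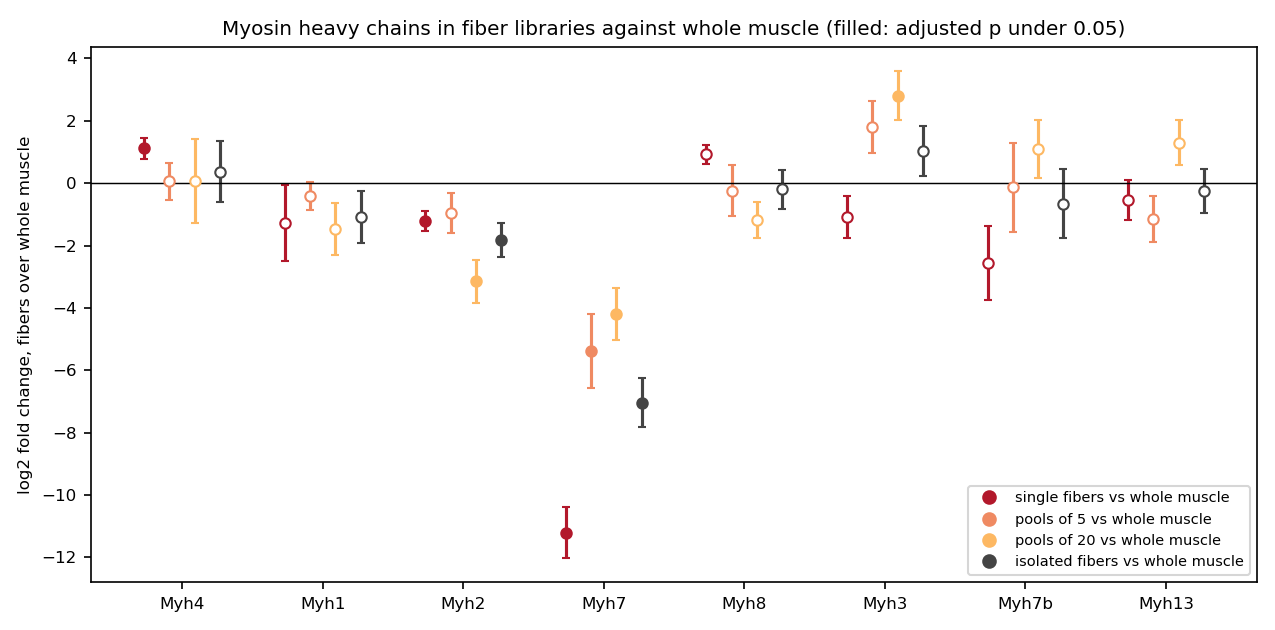
Log2 fold change of each heavy chain in single fibers, pools of 5, pools of 20 and all 9 isolated fiber libraries over whole muscle, with bars of 1 SE; filled points have an adjusted p under 0.05 in edgeR's quasi-likelihood test. Myh7 is below 0 and filled in all 4 comparisons, and Myh4 is filled only in single fibers.

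Taking each fiber group against whole muscle, 3 of the 8 genes were called in single fibers (Myh4 higher, Myh2 and Myh7 lower), where 33.6% of all genes tested were called, 13.9% higher and 19.8% lower. In pools of 5, 1 was called (Myh7 lower), where 8.85% were, 4.63% higher and 4.22% lower. In pools of 20, 3 were called (Myh3 higher, Myh2 and Myh7 lower), where 43.9% were, 30.3% higher and 13.5% lower. These shares of the 8 genes lie near the shares of all genes, so the counts are no result about the heavy chains as a set. All 8 genes passed the filter on low counts here, and the 3 comparisons share their whole muscle libraries.

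Myh8, the perinatal chain, was the most abundant of the developmental and specialised genes. It had 18.4, 18.6 and 13.8 RPKM in single fibers, 3.88, 1.23 and 16.5 in pools of 5, 7.18, 4.28 and 8.20 in pools of 20, and 15.2, 21.1 and 21.3 in whole muscle. All 12 libraries passed the background density, though pool of 20 number 2 did so narrowly, and the 2 lowest were pools of 5 numbers 1 and 2. The annotated exons of Myh8 sum to 11772 bases, against 6149 for its longest coding transcript, so its level per kilobase is lower here than its coding transcript alone would give.

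Against Myh4, the neighbour upstream of it on the chromosome, Myh8 had 1.33, 1.46 and 1.08 reads per 100 Myh4 reads in single fibers, 0.639, 0.373 and 2.09 in pools of 5, 0.582, 0.581 and 0.728 in pools of 20, and 1.44, 1.39 and 1.69 in whole muscle. Single fibers overlapped whole muscle on this ratio and all 3 pools of 20 lay below both. Across the 12 libraries its log2 CPM followed that of Myh4 with Pearson r = 0.899 and Spearman rho = 0.853, given as a description since the libraries share their scaling and the genes share sequence. For comparison, the r of Myh4 with Myh1, Myh2 and Myh7 was 0.066, 0.52 and -0.41.

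Against whole muscle Myh8 was not called in any group: the log2 fold change was 0.92 ± 0.31 in single fibers (adjusted p = 0.0542, edgeR), -0.24 ± 0.81 in pools of 5 (adjusted p = 0.875) and -1.18 ± 0.59 in pools of 20 (adjusted p = 0.116). The sign in single fibers turned with plain library totals, to -0.18 (adjusted p = 0.554), while the rise was called by DESeq2 (0.91, adjusted p = 0.0260) and without single fiber 2 (0.75, adjusted p = 0.0469) or 3 (1.13, adjusted p = 0.0240). In pools of 5 it was -1.48 without pool of 5 number 3 (adjusted p = 0.0255). In pools of 20 it was -1.79 without pool of 20 number 1 (adjusted p = 0.0273) and -1.01 without number 2 (adjusted p = 0.00237). Plain library totals also gave a call there, at -1.51 (adjusted p = 0.00474). Between single fibers and pools of 20 Myh8 was called, as described with that comparison.

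**Figure D4:**
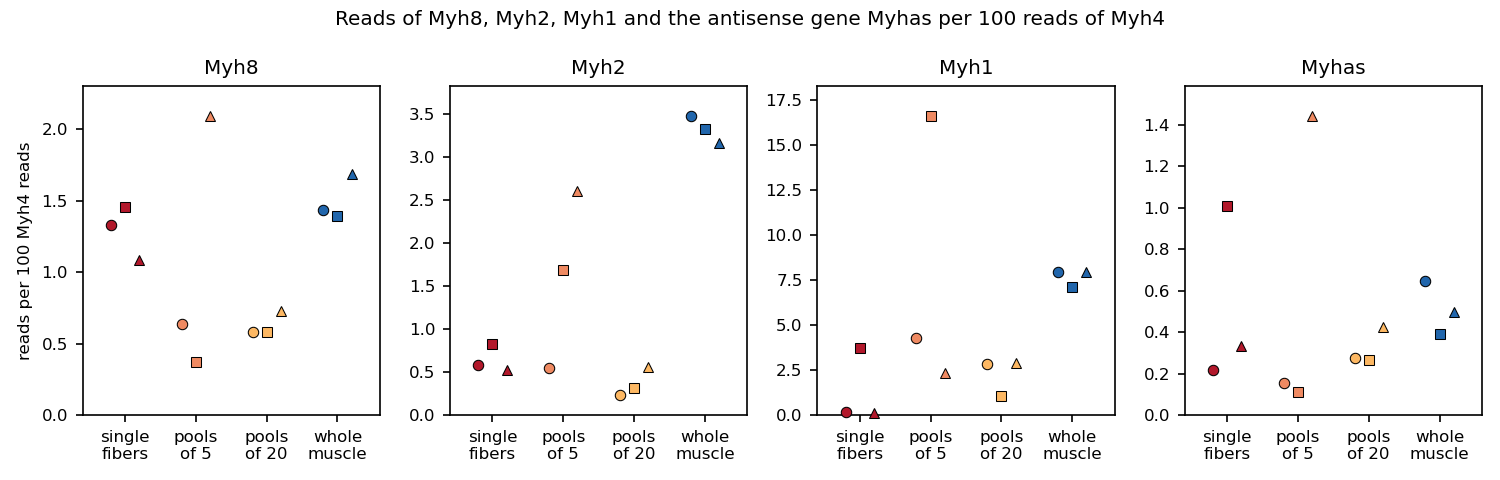
Reads of Myh8, Myh2, Myh1 and the antisense gene Myhas per 100 Myh4 reads in each library, by group; each panel has its own linear axis from 0, and circles, squares and triangles are libraries 1, 2 and 3. Myh8 runs from 0.373 to 2.09, Myh2 is highest in whole muscle, and Myhas is highest in single fiber 2 and pool of 5 number 3.

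Myh3, the embryonic chain, was near the limit of detection. It had 2, 5 and 5 reads in single fibers, 35, 22 and 8 in pools of 5, 18, 81 and 38 in pools of 20, and 8, 14 and 25 in whole muscle. Whole muscle passed the background density in all 3 libraries and pools of 5 in numbers 1 and 3, but none of the single fibers or pools of 20 did. In pools of 20 against whole muscle Myh3 was called higher, at 2.81 ± 0.78 (log2, SE; adjusted p = 0.00841, edgeR), a value made of reads within the background density of those libraries. The call was lost with the spread of all 12 libraries (2.33, adjusted p = 0.0631). In pools of 5 Myh3 was at 1.81 (adjusted p = 0.209), and at 2.39 (adjusted p = 0.00478) without pool of 5 number 3.

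Myh13, the extraocular chain, had 7 to 38 reads in single fibers, 7 to 10 in pools of 5, 14 to 90 in pools of 20 and 13 to 76 in whole muscle. It passed the background in single fibers 2 and 3, in pool of 5 number 3 and in all 3 whole muscle libraries, where it had 0.260, 0.621 and 0.480 RPKM. Myh7b had 0 to 6 reads in single fibers, 0 to 18 in pools of 5, 6 to 48 in pools of 20 and 6, 17 and 66 in whole muscle, and passed the background only in whole muscle. Neither gene was called in any of the 7 comparisons by edgeR with all libraries and TMM. In single fibers against whole muscle Myh7b was called lower without single fiber 1 (log2 fold change -4.69, adjusted p = 0.0485) and with plain totals (-3.59, adjusted p = 0.0405). With pool of 5 number 3 as the only pool of 5, Myh7b was at -7.65 and Myh13 at -2.07 against whole muscle. That library had 0 Myh7b and 8 Myh13 reads. With all pools of 5 and plain totals Myh13 was called lower (-2.27, adjusted p = 0.04997). Of the Myh7b reads, 6 of 7 in single fibers came from number 1 and 66 of 89 in whole muscle from number 3. Mir499, hosted by Myh7b, had 0 reads in all 12 libraries.

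Between the fiber groups, single fibers against pools of 20 gave calls for 3 of the 6 genes that passed the filter, where 36.1% of all genes tested were called, 8.52% higher and 27.5% lower. Myh2 was higher in single fibers by a log2 fold change of 1.94 ± 0.58 (adjusted p = 0.0188, edgeR) and Myh8 by 2.11 ± 0.61 (adjusted p = 0.0160), while Myh3 was lower, at -4.05 ± 1.18 (adjusted p = 0.0170). Myh8 had 307 ± 110 TMM-scaled CPM in single fibers and 56.1 ± 34.4 in pools of 20 (SD, n = 3 each), and Myh2 averaged 154 in single fibers and 31.5 in pools of 20, without overlap for either gene. The Myh3 value again is made of reads within the background.

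Each call depended on the libraries or the scaling, and each was lost with the replicate number as a block in the fit. With plain library totals Myh2 had a log2 fold change of 1.11 (adjusted p = 0.0716), without single fiber 2 Myh2 was at 1.92 (adjusted p = 0.0612) and Myh8 at 2.23 (adjusted p = 0.0571), and without single fiber 1 Myh8 was at 2.37 (adjusted p = 0.0636). Without pool of 20 number 2 Myh3 was at -2.64 (adjusted p = 0.0879). Myh1, at 0.25 (adjusted p = 0.871) with all libraries, was at -2.86 (adjusted p = 0.0347) without single fiber 2. The median gene of this comparison lay at -0.74 (log2) with TMM.

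Single fibers against pools of 5 called none of the 5 genes that passed the filter, with 0.0157% of all genes tested called. At an unadjusted p under 0.05, 1132 of all genes tested passed and 0 of the heavy chains did, and DESeq2 called 423 genes and 0 heavy chains. Pools of 5 against pools of 20 called none of the 8 genes and 0% of all genes by edgeR, with 1502 genes at an unadjusted p under 0.05 and 179 genes and 0 heavy chains called by DESeq2. Myh2 was the 1 heavy chain with an unadjusted p under 0.05 there (log2 fold change 2.47 ± 0.88, adjusted p = 0.530).

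Reads of the antisense gene Myhas did not follow Myh1, whose exons it overlaps. Per 100 Myh1 reads it had 114, 27.2 and 349 in single fibers 1, 2 and 3, 3.64, 0.661 and 61.1 in pools of 5, 9.53, 25.6 and 14.6 in pools of 20, and 8.16, 5.47 and 6.26 in whole muscle. In single fibers 1 and 3 Myhas thus had more reads than Myh1. It was highest in single fiber 2, with 4210 reads, and pool of 5 number 3, with 3316, and the whole muscle libraries held it at 49.3 to 52.3 TMM-scaled CPM. Which reads of the 515 shared bases belong to which gene was not tested.

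The genes whose level across the 12 libraries was most like that of each adult chain were drawn from the 6027 protein-coding genes averaging at least 10 CPM, by Pearson r of log2(CPM + 0.5), as a description. For Myh4 they included Nek9 (r = 0.966), Mlip (0.962) and Ube2l3 (0.961). The libraries share their scaling in all of these. For Myh1 they were Dcakd (0.962), Cdc42ep2 (0.961), Atp1b1, a sodium pump subunit (0.956), and Casq2, the slow and cardiac calsequestrin (0.953). For Myh2 they were Lgmn (0.977), Nkiras2 (0.970), Spryd4 (0.966) and Vps29 (0.965). For Myh7 they were Pck1 (0.936), Hp (0.930), Adipoq, an adipocyte hormone (0.927), and Slc38a10 (0.921).

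The genes most like Myh7 include those of fat. Pck1 was at 0 to 2.60 CPM in fiber libraries and 42.5 to 57.7 in whole muscle, Hp at 0 to 1.52 in fiber libraries and 71.4 to 80.7 in whole muscle, and Adipoq at 0 to 1.23 in fiber libraries and 72.0 to 99.5 in whole muscle. The 3 adipocyte markers summed to 0 to 0.583 CPM in single fibers, 0 to 1.92 in pools of 5, 1.31 to 4.18 in pools of 20 and 781 to 980.5 in whole muscle. The 5 fibroblast markers summed to 7.07 to 157, 39.6 to 393, 42.6 to 359 and 2627 to 2873 CPM in those 4 groups, and the 5 macrophage markers to 0.259 to 3.83, 5.46 to 19.0, 3.63 to 23.7 and 372 to 405. In single fibers the macrophage marker C1qa was at 0 in all 3 libraries. All 3 adipocyte, 5 fibroblast and 5 macrophage markers fell in the 9 fiber libraries against whole muscle, with 4 of the 5 macrophage markers called under RLE, upper-quartile factors and DESeq2 and 4 of the 5 fibroblast markers under DESeq2, and their part in any difference of a heavy chain was not tested.

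The rest of the contractile apparatus was followed in gene lists by role, and each count below in fiber libraries against whole muscle stands beside 15.2% of all genes tested called, 7.46% higher and 7.78% lower. Of 14 slow contractile genes, all tested, 8 fell and 0 rose in fiber libraries against whole muscle, with a median log2 fold change of -2.16 beside 0.40 for all genes. Without single fiber 2 and pool of 5 number 3, 11 fell and 0 rose, and without the 5 high-background libraries 8 fell and 1 rose. One of the 8, Cd36, a fatty acid carrier, is also an endothelial marker here. Tnnc1, the slow and cardiac troponin C, was at 0.40 ± 0.62 TMM-scaled CPM in fiber libraries and 95.4 ± 32.1 in whole muscle (log2 fold change -8.02 ± 0.67, adjusted p = 5.32e-07, edgeR). The 3 most abundant members did not pass the test: Mybpc1, slow myosin-binding protein C, had 1780 ± 1437 CPM in fiber libraries and 579 ± 81.4 in whole muscle (adjusted p = 0.208), and Actn2, an alpha-actinin, was at 0.27 (log2, adjusted p = 0.910). Fhl1, a LIM protein, was at -1.51 (adjusted p = 0.129).

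Of 11 light chains and light chain kinases, 10 were tested, 3 fell and 0 rose (median -0.63), beside 7.78% and 7.46% of all genes, and without the 5 high-background libraries 3 fell and 3 rose. The slow and cardiac light chains Myl3 (log2 fold change -6.45 ± 1.06, adjusted p = 6.12e-04) and Myl2 (-5.00 ± 0.89, adjusted p = 0.00127) fell, as did Myl10 (-4.96 ± 1.05, adjusted p = 0.00571), which was named after its values were seen. The slow light chains did not track Myh7 in each library. Pool of 5 number 3, with 0 Myh7 reads, had 84.9 CPM of Myl2 and 96.2 of Myl3, against 75.0 to 153 CPM of Myl2 and 143 to 244 of Myl3 in whole muscle, and it was also the fiber library highest in Myh2. The fast light chains Myl1 and Mylpf were at 0.76 and 0.48 (log2, adjusted p = 0.788 and 0.872), and Mylk4, a kinase, at 1.53 (adjusted p = 0.0761).

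Of 14 fast contractile genes, all tested, 0 were called in the 9 fiber libraries against whole muscle by edgeR, 0 had an unadjusted p under 0.05 and 0 were called by DESeq2, with a median log2 fold change of -0.0020, including Tnnt3, the fast troponin T (1.04 ± 1.20, adjusted p = 0.620). In those 9 libraries 3 of the 14 fell with plain library totals and 3 rose without the 5 high-background libraries. In single fibers alone 4 of the 14 rose, among them Tnnt3 (adjusted p = 0.0163), Myl1 (adjusted p = 0.0136) and Mylpf (adjusted p = 0.0467), with a median of 0.69 beside -0.12 for all genes, of which 33.6% were called, 13.9% higher. There, with upper-quartile factors 2 of the 14 rose, and with plain library totals 0 rose and 4 fell, so the direction of this list in single fibers turns with the scaling. The same list in pools of 20 had 0 that rose and 1 that fell by edgeR, beside 30.3% and 13.5% of all genes. Its median there was -0.48 beside 0.38 for all genes, and DESeq2 called 0 higher and 5 lower. For pools of 5, 0 of the 14 were called by edgeR, beside 8.85% of all genes. Without pool of 5 number 3, 0 rose and 7 fell, in a fit that called 7920 of all genes. The absence of calls in pools of 5 thus depends on that library.

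Of 17 thick filament partners and myosin folding genes, all tested, 4 rose and 2 fell (median 0.54), beside 7.46% and 7.78% of all genes. DESeq2 gave 8 that rose and 2 that fell, and with plain library totals 3 rose and 6 fell (median -0.26), so the balance of this list turns with the scaling. Titin (Ttn) and Mybpc2, fast myosin-binding protein C, the most abundant beside Mybpc1, were at 1.5 (adjusted p = 0.348) and -0.43 (adjusted p = 0.789). The 2 largest changes by fold, Mybphl and Mybpc3, had 0 reads in whole muscle and at most 1.90 CPM as a group mean in fibers, so no fold is given for them. Among the other calls, and named after their values were seen, were the chaperone Hsp90aa1 (2.60, adjusted p = 0.0202), which rose, and Mybph (-4.09, adjusted p = 0.00150) and the lysine methyltransferase Smyd2 (-2.36, adjusted p = 0.0163), which fell.

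Of 32 regulators of fiber type, all tested, 7 rose and 0 fell (median 0.72), beside 7.46% and 7.78% of all genes. DESeq2 gave 15 that rose and 0 that fell, and without the 5 high-background libraries 14 rose and 1 fell. Tead1, which binds muscle promoters, rose to 150 ± 58.7 CPM in fiber libraries, against 33.2 ± 3.21 in whole muscle (log2 fold change 2.13 ± 0.56, adjusted p = 0.0177, edgeR), and Ppard, a nuclear receptor tied to oxidative fibers, rose by 2.09 ± 0.61 (adjusted p = 0.0304). The 3 most abundant members, Mef2c (1.35, adjusted p = 0.145), the calcineurin regulator Rcan1 (1.21, adjusted p = 0.233) and 2310065F04Rik (1.13, adjusted p = 0.303), did not pass. With plain library totals 1 of the 32 rose and 5 fell, so the direction of this list also turns with the scaling.

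Of 15 genes of regenerating or immature fibers, the setting in which Myh3 and Myh8 are best known, 2 rose and 2 fell (median 0.17), beside 7.46% and 7.78% of all genes. Myod1, a muscle-determining factor, had 626, 21.4 and 1017 CPM in single fibers, 158, 119 and 104 in pools of 5, 11.2, 4.11 and 9.95 in pools of 20, and 6.73, 12.7 and 14.2 in whole muscle (log2 fold change 2.91 ± 0.82, adjusted p = 0.0264, edgeR). Single fibers 1 and 3 were the highest and pools of 20 did not stand above whole muscle. Myog, myogenin, fell (-3.22 ± 0.57, adjusted p = 0.00112), and cardiac actin Actc1, at -0.38 (adjusted p = 0.896), and desmin (Des), at -0.31 (adjusted p = 0.852), did not pass.

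Of 6 other myosin heavy chains, all tested, 1 was called higher (Myh15) and 1 fell, beside 7.46% and 7.78% of all genes. Myh11, the smooth muscle chain, fell by a log2 fold change of -2.18 ± 0.71 (adjusted p = 0.0455), and this call was lost with RLE, with upper-quartile factors and with DESeq2. Myh15 had 0 reads in whole muscle and 0.167, 1.05 and 3.49 CPM as the means of single fibers, pools of 5 and pools of 20, so no fold is given. Without the 5 high-background libraries 0 of the 6 genes rose and 1 fell, so the call of Myh15 was lost. The non-muscle chains Myh9 (0.41, adjusted p = 0.748) and Myh10 (0.15, adjusted p = 0.905) did not pass.

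**Figure D5:**
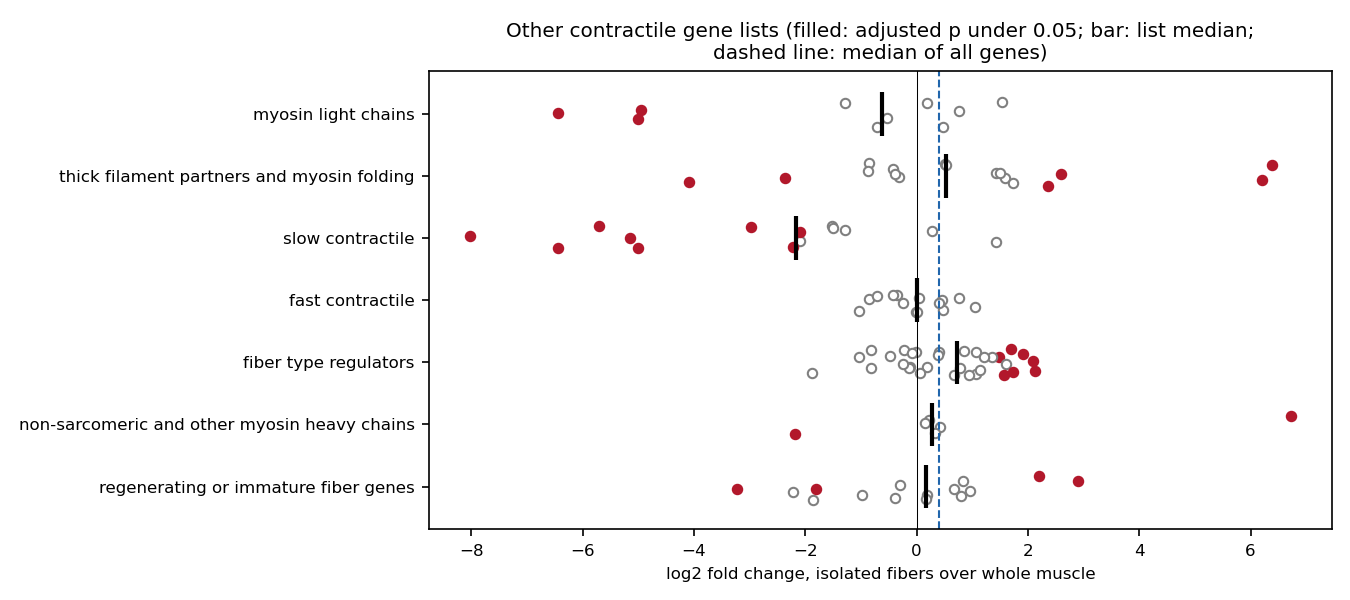
Log2 fold change of each tested gene of 7 lists in the 9 isolated fiber libraries over whole muscle; filled points have an adjusted p under 0.05, bars are list medians and the dashed line is the median of all genes at 0.40. The slow contractile list has 8 filled points, all below 0, and the fast contractile list has none.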

How the data were processed

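RNA-seq was done by the study on 12 libraries, 3 in each of 4 groups, and the deposited table holds the authors' raw gene counts, whole reads per Ensembl gene. Reads were aligned with HISAT2, handled with SAMtools and counted with featureCounts on GRCm38/mm10, per the submitters' processing notes; the strand setting and the treatment of reads with several matches are not given in the sources used here. The groups come from the sample labels. Of 55573 identifiers, 55480 matched the GRCm38 annotation (GENCODE vM21), which gave symbols and exon lengths.

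Counts were scaled by TMM and tested with edgeR 4.0.16 (R 4.3.3, limma 3.58.1) by the quasi-likelihood test after filterByExpr, with Benjamini-Hochberg adjustment over all genes tested and a threshold of 0.05. Every adjusted p in the text is from edgeR unless DESeq2 or an exact permutation test (scipy 1.17.1, Python 3.11.15) is named. Each of 7 comparisons was fitted on its own groups; the 9 fiber libraries were set against whole muscle as the mean of the 3 fiber groups. CPM is scaled by TMM, and RPKM uses plain library totals. Shares divide reads by the summed length of annotated exons. For Myh7 this is 8616 bases, against 6135 for its coding transcript, which lowers its share. Coding sequences were aligned with mafft 7.526, and shared windows are of 50 bases. The scripts were tested on simulated data.

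The heavy chains and the gene lists were chosen with earlier results of these data known. Named genes were the 8 heavy chains, the 4 genes most like each adult chain, overlapping genes, and in each list the 3 most abundant members and the 2 called ones with the largest change; others are said to be chosen after their values were seen, and 2 genes are not reported here. Alternatives were RLE and upper-quartile factors, no low-count filter, DESeq2 1.42.0, 2 groups instead of 4, a replicate block, all 12 libraries in one fit, no mitochondrial genes and Gm10800, each library left out, and, added after the data were seen, plain library totals and leaving out the libraries in doubt.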

Additional observations from a re-analysis of the deposited data

Results flagged for a closer look

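Between single fibers and pools of 20, 3 heavy chains differed by the test of that difference, although both are groups of isolated fibers from the same muscle. Myh2 was higher in single fibers by a log2 fold change of 1.94 (adjusted p = 0.0188, edgeR) and Myh8 by 2.11 (adjusted p = 0.0160), and Myh3 was lower, at -4.05 (adjusted p = 0.0170). In this comparison 36.1% of all genes were called, and all 3 calls were lost with the replicate number as a block in the fit. Over 50% of the receptor genes had a read in each pool of 20, and the Myh3 reads of both groups lie within the background density. With the groups holding 3 libraries each, single libraries were not screened for outlying values.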

How the results depend on the processing

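Of the 8 heavy chains, Myh7 kept its direction and its call against whole muscle in all alternatives run for the 9 fiber libraries, single fibers and pools of 20, and Myh2 did in pools of 20. The shares of Myh4, Myh1, Myh2 and Myh7 in the 9 fiber libraries kept their direction in all alternatives. With single libraries left out they were at 5.14 to 6.91, -4.59 to -2.92, -2.01 to -1.77 and -0.47 to -0.33 percentage points. Depth and background limit the levels of Myh3, Myh7b and Myh13 and of Myh7 in fibers. Except where fewer libraries or genes enter by construction, the cause of each change was not tested.

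In the 9 fiber libraries against whole muscle, 2 heavy chains and 3370 genes were called, with 1 to 3 and 1193 to 7271 on leaving out 1 library. DESeq2 called 6411 genes, the model with 2 groups 596 genes and 1 heavy chain, plain totals 5317 genes, the fit without the 5 high-background libraries 1 heavy chain, and that without single fiber 2 and pool of 5 number 3 gave 8587 genes. Changes of sign were Myh13 with RLE (0.041), upper-quartile factors (0.14) and DESeq2 (0.034), Myh8 with upper-quartile factors (0.029), 2 groups (0.12) and no high-background libraries (0.82), Myh3 in that last fit (-0.85) and Myh4 with plain totals (-0.47). Myh7b ran from -1.61 to 0.29 with single libraries left out.

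In single fibers against whole muscle, 3 heavy chains and 4716 genes were called, with 1 to 5 and 1540 to 7617 on leaving out 1 library. The replicate block gave 3132 genes, the fit of all 12 libraries 2854 genes and 1 heavy chain, and the fit without single fiber 2 gave 7617 genes and 5 heavy chains. Myh8 turned to -0.18 with plain totals.

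For pools of 5 against whole muscle, 1 heavy chain and 1307 genes were called, with 0 to 4 and 7 to 7920 on leaving out 1 library. Genes numbered 2535 with no filter, 3093 with DESeq2, 231 with the replicate block (0 heavy chains), 5681 with plain totals (4 heavy chains), 7422 without the high-background libraries (5) and 7920 without pool of 5 number 3 (4). Myh7b turned with RLE (0.061), upper-quartile factors (0.19), DESeq2 (0.14), no mitochondrial genes (0.031) and no pool of 5 number 3 (0.50). Myh4 turned with no filter (-0.048), the replicate block (-0.026), plain totals (-1.15) and no pool of 5 number 3 (-0.084). Without high-background libraries, which leaves pool of 5 number 3 alone, Myh2 was at 0.035, Myh3 at -0.49 and Myh8 at 0.86. With single libraries left out Myh4 ran from -0.15 to 0.44, Myh8 from -1.48 to 0.27 and Myh7b from -2.63 to 0.88.

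In pools of 20 against whole muscle, 3 heavy chains and 7446 genes were called, with 3 to 5 and 6605 to 13512 on leaving out 1 library. No filter gave 23388 genes, and DESeq2 and plain totals gave 5 heavy chains each. Myh4 turned with no filter (-0.47), the replicate block (-0.066), no mitochondrial genes (-0.057), all 12 libraries (-0.21) and plain totals (-0.27), and Myh7b with no filter (-0.12). With single libraries left out Myh4 ran from -0.66 to 0.31, Myh7b from -0.67 to 1.58 and Myh13 from -0.14 to 1.72.

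In single fibers against pools of 5, 0 heavy chains and 2 genes were called by edgeR, with 0 to 1 and 0 to 833 on leaving out 1 library. Genes numbered 768 with no filter, 423 with DESeq2, 0 with the replicate block, 755 with all 12 libraries (1 heavy chain), 11 with plain totals, 1 without high-background libraries and 3313 without single fiber 2 and pool of 5 number 3 (4 heavy chains). Myh2 turned with the replicate block (0.10) and without those 2 libraries (0.40), Myh13 without them (-0.52) and Myh1 without high-background libraries (0.075). With single libraries left out Myh2 ran from -0.61 to 0.84 and Myh13 from -0.15 to 1.20.

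In single fibers against pools of 20, 3 heavy chains and 6123 genes were called, with 2 to 4 and 3931 to 10714 on leaving out 1 library. No filter gave 15348 genes, and the replicate block 7 genes and 0 heavy chains. Myh1 turned with the block (-2.17), plain totals (-0.59) and no single fiber 2 (-2.86), and ran from -2.86 to 1.18 with single libraries left out. For pools of 5 against pools of 20, no filter gave 6 genes, DESeq2 179, the replicate block 1, plain totals 1 and no pool of 5 number 3 86, and leaving out 1 library 0 to 86. Myh4 turned with upper-quartile factors (-0.079) and plain totals (-0.88) and Myh8 without pool of 5 number 3 (-0.11). With single libraries left out Myh4 ran from -0.068 to 0.93, Myh7 from -1.51 to 0.43, Myh3 from -1.12 to 0.32, Myh8 from -0.11 to 1.89 and Myh7b from -3.07 to 0.59.

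The Myh1 share in pools of 5 against whole muscle was 2.08 percentage points without pool of 5 number 3 and ran from -3.58 to 2.08 with single libraries left out, and the Myh7 share in pools of 5 against pools of 20 from -0.059 to 0.0076. With TMM-scaled totals the summed adult chains turned to 0.15 in the 9 fiber libraries and 1.04 in single fibers against whole muscle and to 0.57 in pools of 5 against pools of 20. Without mitochondrial genes and Gm10800 single fibers were at 0.069, and with single libraries left out they ran from -0.21 to 0.047. Of the other myosin heavy chains 1 was called with RLE and 1 with upper-quartile factors, in place of 2.

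Libraries of different groups share replicate numbers, and the labels do not say whether a number stands for the same animal. Of 18 same-number correlations of deviations 3 passed 0.1, over a range of -0.40 to 0.46. Correlations between different numbers ran from -0.51 to 0.52, so this check cannot decide whether the numbers pair the libraries. With the block, the Myh4 call in single fibers (adjusted p = 0.122, edgeR), the Myh7 call in pools of 5 (adjusted p = 0.0619) and all 3 calls between single fibers and pools of 20 (adjusted p = 0.0917 to 0.0969) were lost.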
